A study of Bos taurus with 8 samples.

Results

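The glyoxalase and aldehyde detoxification genes described here are GLO1, HAGH, GLOD4, PARK7, AKR1A1, AKR1B10, ALDH2, ALDH7A1, ADH5 and ESD, measured in bovine endometrium after methylglyoxal was placed in the uterus. They were followed on every noncontrol probe that the array files annotate to one of these 10 symbols, which gave 23 of 43653 probes, for 10 of the 17197 genes named on the array. Endometrium was biopsied from 8 cows on day 7 after standing estrus (day 0), from the uterine horn ipsilateral to the ovary that bore the corpus luteum. On day 1, 25 mL of fluid had been put into each horn, and its methylglyoxal concentration was 5 mM for 4 of the animals and 0 mM for the remaining 4. Breed, age and the composition of the fluid are not given in the sources used here. Each biopsy was hybridised to its own one-colour Agilent array, so a value belongs to 1 animal. The biopsies are mixtures of cell types, in which fewer cells of a type and less RNA per cell cannot be told apart.

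Methylglyoxal is a reactive dicarbonyl that forms spontaneously from the triose phosphates of glycolysis and modifies arginine and lysine residues of proteins. Cells remove it mainly through the glyoxalase system. GLO1 converts the adduct of methylglyoxal and glutathione to S-D-lactoylglutathione, and HAGH (glyoxalase II) hydrolyses that product to D-lactate and releases the glutathione. Aldo-keto reductases and aldehyde dehydrogenases take a smaller share by reducing or oxidising carbonyl compounds. ADH5 and ESD act one after the other in the glutathione-dependent removal of formaldehyde, a parallel route that uses the same cofactor.

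None of the 10 genes differed between the cows given 5 mM and the cows given 0 mM past the multiple-testing threshold of the limma fit. ALDH7A1, an aldehyde dehydrogenase of lysine breakdown, was the only one of the 10 whose 4 values in the 5 mM group all lay above the 4 of the 0 mM group, by 0.26 ± 0.13 on the log2 scale (SE, n = 4 each), and its adjusted p in that fit was 0.913. The same held for 1.02% of all tested probes. With a normexp background correction of the raw spot signals, which also leaves out the scanner software's trend correction, the ALDH7A1 groups overlapped. ALDH2, the mitochondrial enzyme that oxidises acetaldehyde and lipid-derived aldehydes, covered a 1.14-fold range over the 8 cows at its brightest probe and up to a 3.30-fold range at its other probes. The GLO1 probe with the highest mean signal covered a 15.0-fold range over the 8 cows, and the other GLO1 probes covered 2.13-fold and 2.35-fold ranges. The first of these was printed in the outermost row of the array and its values followed the slide; the part of either in its spread was not tested.

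The 75th percentile of the processed signal was 1032 to 1456 intensity units over the 8 arrays, 68.3% to 73.3% of noncontrol spots were well above background, and no spot was saturated. A value is given as log2 of the signal minus log2 of its own array's 75th percentile, and differences are 5 mM minus 0 mM. Levels of different probes are not compared, since each probe has its own brightness. The arrays were on 3 slides. Slide 1 carried 5 mM replicate 1 and 0 mM replicate 1, slide 2 carried 1 cow given 5 mM (replicate 2) and 2 given 0 mM (replicates 2 and 3), and slide 3 carried 2 given 5 mM (replicates 3 and 4) and 1 given 0 mM (replicate 4). Libraries differed in their cell markers, each of which was centred on its mean over the 8 cows. The mean of 10 markers of luminal and glandular epithelium was -3.17 in 5 mM replicate 1, against 0.27 to 0.51 in the other 5 mM cows and 0.21 to 0.86 in the 0 mM cows, and all 10 markers had a lower mean in the 5 mM group. The mean of 10 smooth muscle markers was 2.65, -1.31, 1.79 and -0.87 in 5 mM cows 1 to 4, against 1.33, -1.69, -1.01 and -0.89 in 0 mM cows 1 to 4, with all 10 markers higher in the 5 mM mean. The mean of the 2 measured markers of red blood cells was -0.15, 2.12, -2.07 and 2.43 in 5 mM cows 1 to 4, against -0.12, -0.34, -1.49 and -0.38 in 0 mM cows 1 to 4. The part of the cell makeup in the values of the 10 genes was not tested. For the genes in which 5 mM replicate 1 was the highest or the lowest cow, the difference without it is given.

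Over all probes, a limma fit with Benjamini-Hochberg adjustment gave an adjusted p under 0.05 for 0 of 31108 tested probes (0%), those well above background on at least 4 arrays. Without adjustment, 595 probes (1.91%) had a p under 0.05. Of the 23 probes of the 10 genes, 21 were tested, and 0 of these had an unadjusted p under 0.05. Of the 21 differences, 14 were above 0 (66.7%, against 53.1% of all tested probes) and 7 below. The 21 probes belong to 10 genes, so they are not separate observations. The median was 0.046 against 0.021 over all tested probes, and 19 were smaller than 0.3 in size. The number above 0 was 13 after quantile normalization, 16 after a median shift or normexp, and 9 without 5 mM replicate 1. For 19 of the 21 probes the 95% confidence interval of the difference stayed within a 2-fold change in either direction. The exceptions were the main GLO1 probe and the AKR1B10 probe. The plot of the differences with their intervals shows these 2 as the widest bars.

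**Figure D1:**
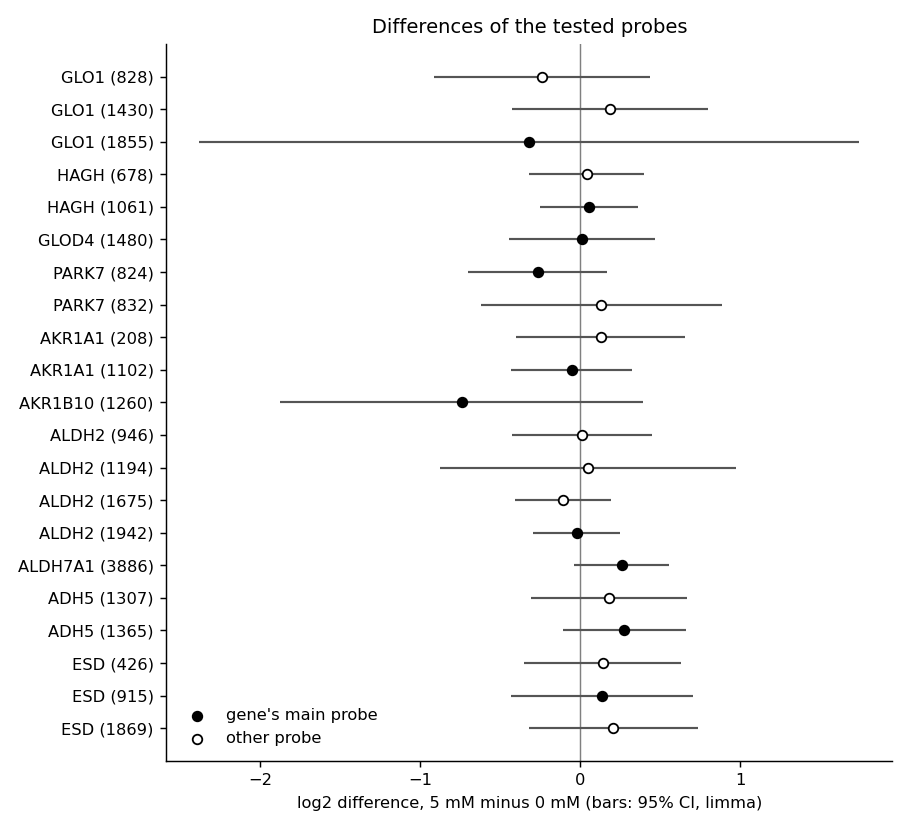
Log2 difference (5 mM minus 0 mM) of the 21 tested probes on the x axis. Each probe has its own row, with its start in its annotated sequence in brackets. Points are means of 4 cows minus means of 4 cows (2 and 3 cows for the PARK7 probe at 832). Bars are 95% confidence intervals from limma, and filled points are the main probe of each gene. Every interval includes 0, and the widest is that of the GLO1 probe starting at base 1855, from -2.38 to 1.74.

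GLO1, the first enzyme of the pathway, had 3 probes on chromosome 23 of the array's bovine build (HGSC Btau_3.1), all on the minus strand. They start at bases 828, 1430 and 1855 of the annotated transcript and lie at chr23:12989922-12989981, chr23:12989320-12989379 and chr23:12988895-12988954. Their distances of 602 and 425 bases are the same in the genome as in the transcript, so no intron lies between their starts. The first 30 bases of each are shown because the results for GLO1 differ between these stretches of one transcript.
GLO1 probe at 828: ctagttgtataactttacttttttaggcaa
GLO1 probe at 1430: ttcattagtcttctttgtaaaagccttcag
GLO1 probe at 1855: tcttacgctgttagaagcattttatatttc

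The probe at 1855, the one with the highest mean, read 3.03, 0.42, -0.88 and 0.07 in 5 mM cows 1 to 4, against 2.51, 0.65, 1.10 and -0.34 in 0 mM cows 1 to 4. The highest values of both groups came from replicate 1, the groups overlapped over nearly their whole range, and the difference was -0.32 ± 0.89 (SE; 95% confidence interval -2.38 to 1.74; adjusted p 0.951 in limma, exact two-sided permutation p 0.714). Without 5 mM replicate 1 the difference was -1.11, and it was above 0 without 0 mM replicate 1 (0.19) or without 5 mM replicate 3 (0.20). Its SD over the 8 cows was 1.35, higher than that of 94.1% of tested probes.

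The 3 slides lay wholly apart for this probe. On slide 1 it read 2.51 to 3.03, on slide 2 0.42 to 1.10 and on slide 3 -0.88 to 0.07. Differences between slides made up 93.5% of its spread, and its SD within slides was 0.41. This was so for 1 of the 20 probes of the 10 genes with a value on all arrays, against 4.30% of all tested probes. Within slides the difference was 0.52, -0.45 and -0.06 for slides 1, 2 and 3, and with slide as a block it was -0.04.

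The same probe was printed in row 1 of 532 rows, at the array's edge, while the GLO1 probes at 1430 and 828 were in rows 366 and 151. The scanner software divides the background-subtracted signal by a trend factor fitted over the array. For the spot at 1855 this factor was 1.04, 0.510, 0.296 and 0.301 in 5 mM cows 1 to 4, against 1.09, 0.589, 0.507 and 0.354 in 0 mM cows 1 to 4, so it followed the slide as well. Dividing by it raised the values of slides 2 and 3 relative to those of slide 1. With normexp, which omits this division, the SD of the probe over the 8 cows was 1.92, against 1.35 with it. For the 2 inner GLO1 probes the factor stayed between 0.956 and 1.13. Other genes' probes near the same edge varied in a like way: the 64 other tested probes in rows 1 and 2 had a median SD of 1.29 and a median r of 0.85 with the GLO1 probe over the 8 arrays, and 46.9% of them had the slides apart. More than 50 rows from the nearer edge, the median SD was 0.34 in the upper part of the array and 0.33 in the lower, the median r was 0.01 and 0.06, and 2.99% and 2.54% of probes had the slides apart. At the opposite edge, the 77 probes in the last 2 rows had a median SD of 1.71 and a median r of 0.25. These correlations are a description over 8 arrays that share slides. The part of the position in the spread of the GLO1 probe was not tested.

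**Figure D2:**
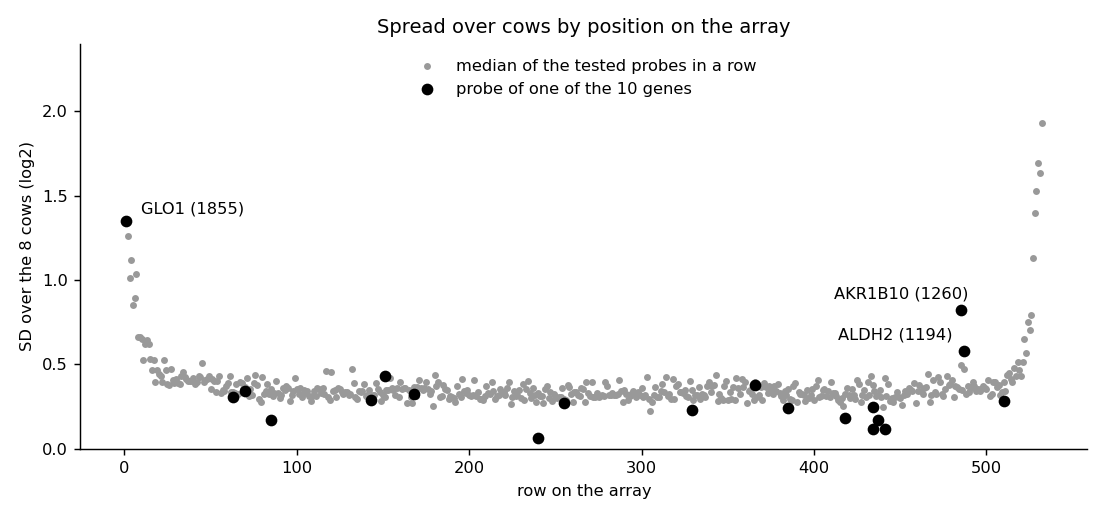
SD over the 8 cows (log2, y axis) by row on the array (x axis); grey points are the median of the tested probes in each row, black points are the 20 probes of the 10 genes with a value on every array. The GLO1 probe at 1855 lies in row 1, where the spread of other genes' probes is as high. The other probes lie at least 23 rows from the upper or lower edge, and columns are not shown.

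The inner GLO1 probes varied less. The probe at 1430 read 1.33, 0.61, 0.37 and 0.90 in 5 mM cows 1 to 4, against 0.96, 0.24, 0.91 and 0.36 in 0 mM cows 1 to 4, with a difference of 0.19 ± 0.26 (SE; 95% confidence interval -0.42 to 0.80), and of 0.0083 without 5 mM replicate 1. The probe at 828 read -1.83, -2.06, -2.59 and -2.81 in 5 mM cows 1 to 4, against -1.87, -2.48, -1.58 and -2.40 in 0 mM cows 1 to 4, with a difference of -0.24 ± 0.29 (95% confidence interval -0.92 to 0.44), and of -0.40 without 5 mM replicate 1. Both sets of groups overlapped, the signs were opposite, and the SDs over the 8 cows were 0.38 and 0.43, near the median of all tested probes (0.35). The inner probes correlated with r of 0.562 over the 8 cows (exact permutation p 0.146; adjusted p 0.243 over 15 pairs of probes of one gene). With the 20 outermost rows at either edge left out, a setting chosen after seeing the data, the probe at 1430 stands for GLO1. The intervals of both inner probes stayed within a 2-fold change in either direction. That of the main probe at 1855, from -2.38 to 1.74, did not, and no bound is read from the inner probes for GLO1 as a whole.

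**Figure D3:**
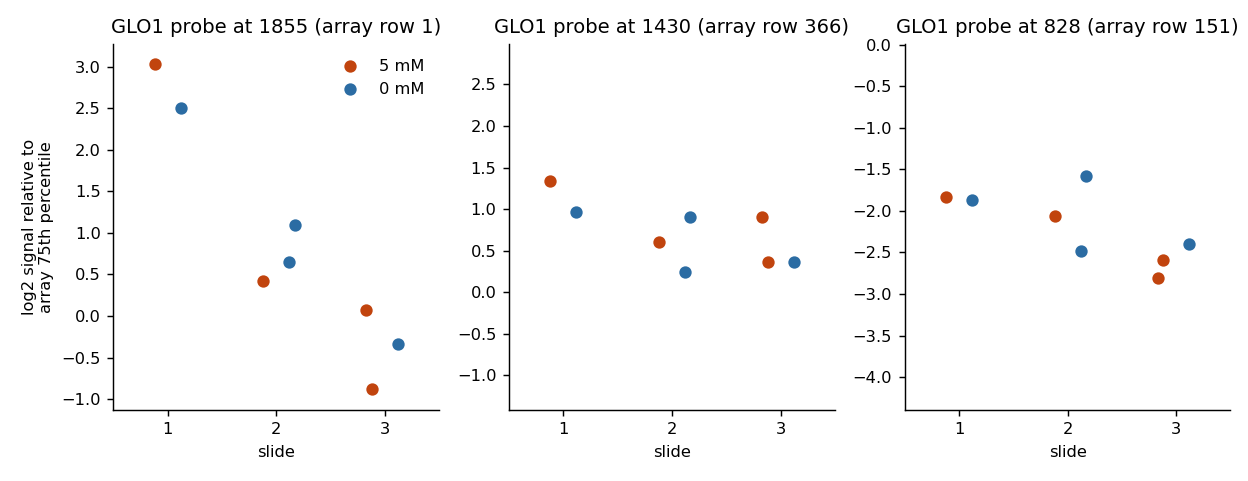
Log2 signal of the 3 GLO1 probes relative to the array's 75th percentile (y axis, the same span in each panel) by slide (x axis); each point is 1 cow, orange for 5 mM and blue for 0 mM. The probe at 1855, in array row 1, falls by slide in both groups, while the probes at 1430 and 828, in rows 366 and 151, cover narrower ranges.

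By the likeness rule, the genes whose main probes had the highest Pearson r with the GLO1 probe at 1855 over the 8 arrays, among 12414 genes, were CERT1 (0.988), PEX10 (0.965), QRICH1 (0.963), ASIP (0.959) and SLC25A6 (0.952). The probes of CERT1, PEX10, ASIP and SLC25A6 were printed in rows 2, 4, 3 and 1 of the array, and that of QRICH1 in row 89. Rows 1 to 5 held 0.532% of the tested probes compared. Of the 164 probes in those rows 48.8% had an r over 0.8 with the GLO1 probe, against 1.93% of the 30674 probes elsewhere. Nothing is read from this likeness about the genes themselves.

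HAGH, the second enzyme of the pathway, was among the steadiest genes. Its probe at 1061 (chr25:1832831-1832890) read 2.71, 2.81, 2.68 and 3.01 in 5 mM cows 1 to 4, against 2.61, 2.79, 2.78 and 2.81 in 0 mM cows 1 to 4. All 8 values lay within 0.40 of each other, a 1.32-fold range, and the groups overlapped. The difference was 0.056 ± 0.13 (SE), with a 95% confidence interval from a ratio of 0.840 to one of 1.29. The second HAGH probe, at 678, gave 0.040 ± 0.16. It was lowest in both slide 1 cows, at -0.54 in 5 mM replicate 1 and -0.53 in 0 mM replicate 1. Without 5 mM replicate 1 alone the difference was 0.13, and within slides 1, 2 and 3 it was -0.007, 0.19 and -0.05. These 2 probes start 4095 bases apart in the genome. They are annotated to different sequences, so no distance within a single transcript is given. They followed each other over the cows with r of 0.764 (exact permutation p 0.0218, adjusted p 0.0466 over 15 pairs). Without the 2 cows farthest from the median the r was 0.653. Their spots lie close together on the array, in row 437, column 57 and row 434, column 62. Differences between slides made up 77.9% of the spread of the probe at 678 and 39.1% of that at 1061. The part of position and slide in this agreement was not tested.

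GLOD4 encodes a protein with glyoxalase-fold domains whose substrate is not settled. Its single probe (chr19:22105637-22105696) read -0.06, -0.02, -0.41 and -0.08 in 5 mM cows 1 to 4, against -0.39, 0.30, -0.42 and -0.10 in 0 mM cows 1 to 4. The groups overlapped, and the difference was 0.011 ± 0.20 (SE; 95% confidence interval -0.45 to 0.47).

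PARK7 encodes DJ-1, a redox-responsive protein for which a glutathione-independent glyoxalase activity has been described. Of its 3 probes, those at 824 and 832 overlap by 52 bases and differ at 1 of them, and both carry the polyadenylation signal letters AATAAA. Searched on the strand as printed, that motif was present in 3 of the 23 probes and in 9.35% of all noncontrol probes. The shared stretch is shown because these probes read the same part of the transcript with 1 differing base. Positions are counted from 1 at the 5′ end of the stretch, the capital marks the differing base, and from the probe at 824 to the probe at 832 the substitution is T16C.
PARK7 probe at 824: tatatcccctcatttTtgaaccttgattgc
PARK7 probe at 832: tatatcccctcatttCtgaaccttgattgc

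The PARK7 probe at 824 read 4.53, 4.32, 4.21 and 3.78 in 5 mM cows 1 to 4, against 4.63, 4.54, 4.25 and 4.49 in 0 mM cows 1 to 4. The lowest value was in 5 mM replicate 4, the groups overlapped, and the difference was -0.27 ± 0.19 (SE; 95% confidence interval -0.70 to 0.17; adjusted p 0.913 in limma, exact two-sided permutation p 0.171). Without 5 mM replicate 4 it was -0.12. The probe at 832 had values on only 5 arrays, because its spot carried an outlier mark on 2 of the 5 mM arrays and 1 of the 0 mM arrays. There it read 4.67 and 4.26 in 5 mM cows 1 and 2, against 4.71, 4.03 and 4.27 in 0 mM cows 1 to 3, a difference of 0.13 ± 0.29, and of -0.07 without 5 mM replicate 1. On the same 5 arrays, a comparison chosen after seeing the data, the probe at 824 averaged 4.43 in the 5 mM cows and 4.47 in the 0 mM cows, a difference of -0.05. The probe at 832 was printed in row 14, and the trend factor of its spot ranged over 2.81-fold between arrays, against 1.09-fold for the probe at 824. The third PARK7 probe, at 1220, was not well above background on any array.

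Among the aldo-keto reductases, AKR1A1 (aldehyde reductase) was steady and AKR1B10 was close to background. AKR1A1 read 3.08, 3.31, 2.75 and 3.07 in 5 mM cows 1 to 4, against 2.95, 3.21, 3.27 and 2.99 in 0 mM cows 1 to 4 at its probe at 1102 (chr3:107421420-107421479). The groups overlapped and the difference was -0.05 ± 0.16 (SE). Its other probe, at 208, gave 0.13 ± 0.23. It was lowest in both slide 1 cows, at -2.20 in 5 mM replicate 1 and -2.09 in 0 mM replicate 1, against -1.68 to -1.34 in the other cows. Differences between slides made up 87.7% of its spread. Without 5 mM replicate 1 alone the difference was 0.32, and within slides 1, 2 and 3 it was -0.10, 0.23 and 0.17. The probe at 208 followed the one at 1102 over the cows with r of only 0.162 (exact permutation p 0.698). The trend factor covered 1.29-fold and 1.31-fold ranges at these spots.

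AKR1B10 encodes an NADPH-dependent reductase of retinal and aliphatic aldehydes. Its probe at 1260 (chr4:101966899-101966958) read -8.03, -6.10, -6.02 and -5.57 in 5 mM cows 1 to 4, against -5.47, -5.78, -5.87 and -5.65 in 0 mM cows 1 to 4, and it was well above background in 2 of 4 cows given 5 mM and in 4 of 4 given 0 mM. The lowest value was in 5 mM replicate 1, the cow with the low epithelial markers. The difference was -0.74 ± 0.49 (SE; 95% confidence interval -1.88 to 0.39; adjusted p 0.913 in limma, exact two-sided permutation p 0.143), and -0.21 without 5 mM replicate 1. With a normexp background correction, without the trend division, the difference was 0.006, so no direction is given for this gene. The second AKR1B10 probe, at 798, was not well above background on any array. It spans 862 bases of the genome and so crosses an intron.

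The genes most like AKR1B10 over the 8 arrays were TMEM132A (r of 0.993), CDC42BPG (0.986), PCDP1 (0.986), ODF3B (0.985) and MRPS36 (0.984). PCDP1 and ODF3B encode proteins of cilia, and how common such genes are among all genes was not computed. In 5 mM replicate 1 AKR1B10 read -8.03, below -6.21, the lowest signal well above background on that array. With normexp that cow read -3.90 and 0 mM replicate 2 was the lowest, at -3.93. Nothing is read from this likeness about the genes themselves. The mean of 7 measured ciliated cell markers was -2.10, 0.41, -0.67 and 0.34 in 5 mM cows 1 to 4, against 0.77, 0.67, 0.37 and 0.21 in 0 mM cows 1 to 4, and correlated with AKR1B10 with r of 0.920 and a Spearman rho of 0.524 (exact permutation p 0.0163 and 0.197). Over the 40 relations between these 10 genes and 4 marker lists, the adjusted p of that r was 0.350, and without the 2 cows farthest from the median of the marker mean it was 0.270. It rested on those cows. None of the 40 relations passed, and the other at an unadjusted p under 0.05 was GLO1 with endothelial markers (r of -0.798, exact permutation p 0.0175, adjusted p 0.350), on the edge probe. On the means of the epithelial, smooth muscle and stromal lists the cows fell into separate clusters, so no correlation was computed with them. Their largest gaps made up 0.838, 0.507 and 0.664 of the range, against a limit of 0.5 chosen after seeing the data. The ciliated and red blood cell lists were kept at 0.499 and 0.497, just under it. In the epithelial, stromal and ciliated lists the largest gap set 5 mM replicate 1 apart from the other cows.

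**Figure D4:**
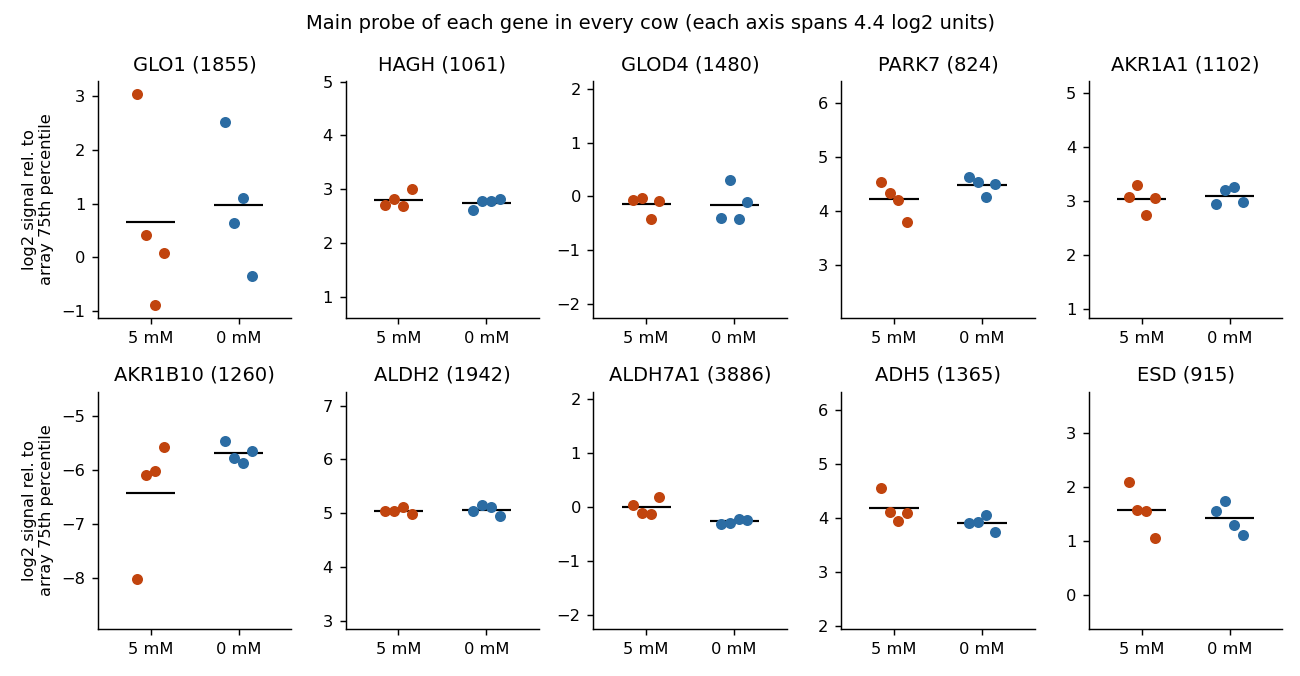
Log2 signal of each gene's main probe relative to the array's 75th percentile (y axis, the same span in every panel) in the cows given 5 mM (orange, left) and 0 mM (blue, right); each point is 1 cow and the bar is the mean of 4. ALDH2 and HAGH are tight, ALDH7A1 has no overlap between groups, GLO1 ranges from -0.88 to 3.03 and AKR1B10 has 1 low cow.

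ALDH2 gave the narrowest values of the 10 genes. Its probe at 1942 (chr17:65572742-65572801) read 5.05, 5.04, 5.11 and 4.98 in 5 mM cows 1 to 4, against 5.04, 5.15, 5.11 and 4.96 in 0 mM cows 1 to 4. The 8 cows covered a 1.14-fold range with an SD of 0.066, below that of all but 0.123% of the 30839 tested probes with a value on every array, and below all but 0.850% of the 353 probes within 0.5 log2 units of its mean. The difference was -0.02 ± 0.12 (SE), with a 95% confidence interval from a ratio of 0.816 to one of 1.19.

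The other ALDH2 probes were less tight. The probe at 1675 had an SD of 0.12 and a difference of -0.11 ± 0.13. The probe at 946, which spans 665 bases of the genome and so crosses an intron, had an SD of 0.23 and a difference of 0.012 ± 0.19. The probe at 1194 read 0.74, -0.57, 0.92 and 0.63 in 5 mM cows 1 to 4, against 1.15, 0.15, -0.20 and 0.44 in 0 mM cows 1 to 4, with an SD of 0.58 and a difference of 0.046 ± 0.40. It was low in 1 cow given 5 mM and in 2 given 0 mM, all on slide 2, and differences between slides made up 80.5% of its spread. Its spot was in row 487 and column 2 of 85 columns, at a side edge. The trend factor there was 0.665 in 5 mM replicate 2 and 0.659 and 0.747 in 0 mM replicates 2 and 3, against 0.953 to 1.06 on the other arrays. The part of the position in its spread was not tested. The probes at 1675 and 1942 followed each other over the cows (r of 0.847, exact permutation p 0.00933, adjusted p 0.0281; 0.687 without the 2 farthest cows), and the pairs that hold the probe at 946 or the one at 1194 with either of them had r between -0.26 and -0.07. The first 30 bases of the tightest and the widest ALDH2 probe are shown.
ALDH2 probe at 1942: gaaaagccattgttgaccgctctactatca
ALDH2 probe at 1194: aagaaggtccttggctatatcaaatctggg

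ALDH7A1 (antiquitin) oxidises the semialdehyde formed in lysine breakdown as well as other aldehydes. Its only probe (chr7:26202405-26202464) read 0.03, -0.10, -0.13 and 0.19 in 5 mM cows 1 to 4, against -0.31, -0.29, -0.21 and -0.23 in 0 mM cows 1 to 4. It is shown because it is the probe with no overlap between groups.
ALDH7A1 probe at 3886: actgactccagaagttttctctgaaactaa

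The ALDH7A1 mean was -0.002 ± 0.15 for 5 mM and -0.26 ± 0.05 for 0 mM (SD, n = 4 cows each), a difference of 0.26 ± 0.13 (SE). The 95% confidence interval ran from -0.04 to 0.56, a ratio of 0.974 to 1.47, and the lowest 5 mM cow (-0.13) lay close to the highest 0 mM cow (-0.21). The exact two-sided permutation p was 0.0286, the smallest that 70 arrangements of 4 against 4 cows allow, and it is not adjusted for the number of probes looked at. In the limma fit over all probes the unadjusted p was 0.0797, rank 1251 of 31108, and the adjusted p 0.913. All 5 mM cows lay above all 0 mM cows for 1 of the 21 tested probes of the 10 genes, against 1.02% of all tested probes, and all lay below for 0 of the 21, against 0.524%. In either direction the groups did not overlap for 1.54% of all tested probes. Within slides 1, 2 and 3 the difference was 0.34, 0.15 and 0.26. With normexp, which also omits the trend division, it was 0.17 and the groups overlapped. The parts of the background and of the trend in that overlap were not tested. Its probe lay in row 85, and the trend factor covered a 1.21-fold range.

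ADH5 and ESD catalyse successive steps of formaldehyde removal. ADH5 oxidises the adduct of formaldehyde and glutathione, and ESD hydrolyses the resulting S-formylglutathione. The ADH5 probe at 1365 (chr6:27350964-27351023) read 4.55, 4.11, 3.95 and 4.09 in 5 mM cows 1 to 4, against 3.90, 3.93, 4.05 and 3.73 in 0 mM cows 1 to 4. The highest value was in 5 mM replicate 1 and the groups overlapped through 5 mM replicate 3 and 0 mM replicate 3. The difference was 0.27 ± 0.17 (SE; 95% confidence interval -0.11 to 0.66; adjusted p 0.913 in limma, exact two-sided permutation p 0.0571), and 0.15 without 5 mM replicate 1. The probe at 1307 (chr6:27350906-27350965) starts 58 bases before it and overlaps it only at the very end. This probe gave 0.18 ± 0.21 (SE), or 0.0015 without 5 mM replicate 1. These 2 probes had r of 0.898 over the cows (exact permutation p 0.00935, adjusted p 0.0281) and of 0.258 without the 2 cows farthest from the median, so the agreement rested on those cows.

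ESD had 3 probes on chromosome 12. The probe at 915 (chr12:15748122-15748181) read 2.08, 1.56, 1.56 and 1.04 in 5 mM cows 1 to 4, against 1.56, 1.73, 1.30 and 1.11 in 0 mM cows 1 to 4. The groups overlapped and the difference was 0.14 ± 0.25 (SE; 95% confidence interval -0.43 to 0.70). The probes at 426 and 1869 gave 0.14 ± 0.21 and 0.21 ± 0.23. All 3 were highest in 5 mM replicate 1, and without that cow the differences of the probes at 426, 915 and 1869 were -0.0020, -0.04 and 0.037. Their correlations over the 8 cows were 0.957 for the probes at 426 and 915, 0.898 for those at 426 and 1869, and 0.854 for those at 915 and 1869 (exact permutation p 0.000546, 0.00315 and 0.00692; adjusted p 0.00818, 0.0236 and 0.0281 over the 15 pairs). Without the 2 cows farthest from the median they were 0.884, 0.723 and 0.793. The 3 probes lie in rows 510, 70 and 168 of the array. The starts of the first 2 are 8671 bases apart in the genome and 489 in the transcript, so an intron lies between them. The probe at 426 lay 23 rows from the edge. Its trend factor was 0.503 to 0.557 on slide 2, against 0.766 to 0.856 on the other arrays. With normexp, which omits that division, it read 0.34 to 0.56 on slide 2, against 0.65 to 1.55 on the other arrays. The part of position and slide in the agreement of the ESD probes was not tested.

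**Figure D5:**
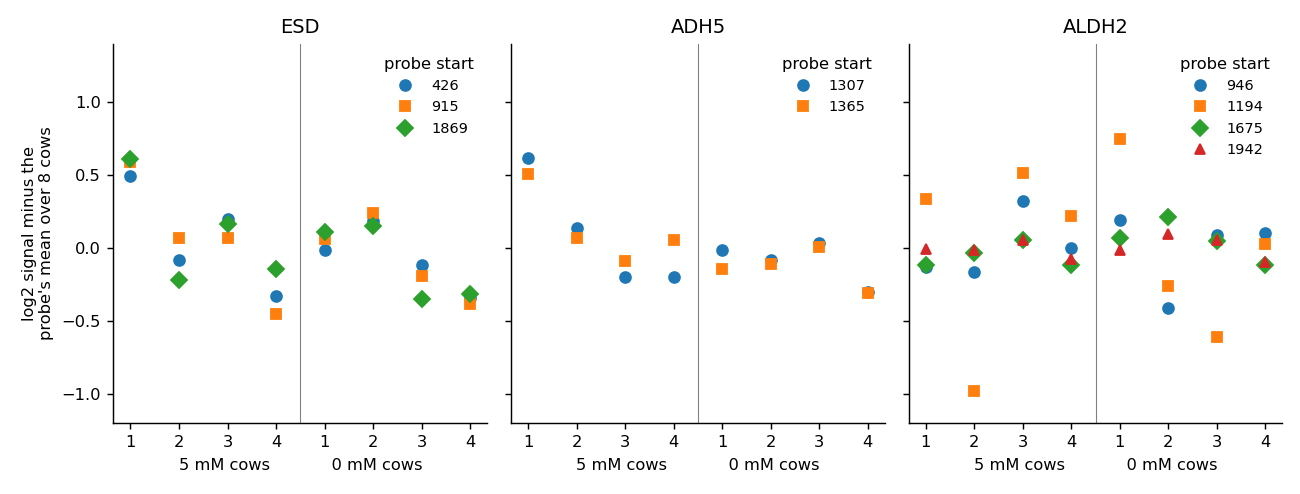
Log2 signal minus the probe's own mean over 8 cows (y axis) for each cow (x axis, 5 mM cows 1 to 4 left of the line, 0 mM cows 1 to 4 right), one symbol a probe. The 3 ESD probes move together, the 2 ADH5 probes share a high 5 mM replicate 1, and the ALDH2 probe at 1194 departs from the probes at 1675 and 1942.

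Over the 6 genes with at least 2 probes measured on all arrays there were 15 pairs of probes. The r was above 0 in 11 pairs, ran from -0.26 to 0.957, and had an adjusted p under 0.05 by the exact permutation test in 7 pairs. In these 7 were all 3 ESD pairs and 1 pair each of ADH5, ALDH2, HAGH and GLO1. How often pairs of probes of other genes pass was not computed. The permutations did not take account of the slides. Differences between slides made up a median of 44.7% of the spread of the 20 probes, against 43.1% over all tested probes. The part of the slides in these correlations was not tested. The 2 HAGH spots lie close together on the array. The GLO1 pair holds the edge probe (r of 0.790, exact permutation p 0.0198, adjusted p 0.0466), and slides of 2 or 3 arrays are too small for a correlation within them. By Spearman's rho no pair passed (lowest adjusted p 0.0536). The sign of the difference between groups was opposite within 7 of the 15 pairs.

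Of the 20 probes with a value on every array, 15 had an SD below the median of all tested probes (0.35), and 11 had one below the median of the tested probes within 0.5 log2 units of their own mean. Their median SD was 0.28, and the SDs ran from 0.066 for ALDH2 to 1.35 for the edge probe of GLO1. Apart from AKR1B10, whose probe is dim, the probes with an SD over 0.5 were GLO1 at 1855 and ALDH2 at 1194.

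In all, 40 other genes of carbonyl metabolism were listed for comparison, and 31 of them had a tested probe. Of these, 13 had a positive and 18 a negative difference, the median was -0.07 against 0.010 over all 12966 genes, and 0 passed the adjusted threshold. An unadjusted p under 0.05 was found for 1 of the 31, against 1.91% of all tested probes. That gene was GRHPR (unadjusted p 0.0422, adjusted p 0.913 in limma), which reduces glyoxylate and hydroxypyruvate. It read 2.72, 1.95, 2.30 and 2.55 in 5 mM cows 1 to 4, against 1.81, 1.85, 1.96 and 2.08 in 0 mM cows 1 to 4, a difference of 0.46 ± 0.19 (SE), or 0.34 without 5 mM replicate 1, and its second probe gave 0.39. The groups overlapped through 5 mM replicate 2. ADH6, an alcohol dehydrogenase, read -1.87, -4.61, -2.54 and -4.34 in 5 mM cows 1 to 4, against -4.22, -4.57, -5.54 and -4.43 in 0 mM cows 1 to 4. Its groups overlapped, and its difference of 1.35 ± 0.64 was 0.86 without 5 mM replicate 1. ALDH1L2, a mitochondrial folate-linked dehydrogenase, read -3.69, -4.63, -4.39 and -4.94 in 5 mM cows 1 to 4, against -5.23, -5.28, -4.57 and -4.88 in 0 mM cows 1 to 4. Its groups overlapped as well, and its difference of 0.58 ± 0.29 was 0.34 without 5 mM replicate 1. Both had an adjusted p of 0.913 in limma. AKR1B1 (aldose reductase) gave -0.47 ± 0.38 and was lowest in 5 mM replicate 1, at 3.60 against 5.12 to 5.41 in the other 5 mM cows and 5.17 to 5.38 in the 0 mM cows; without that cow the difference was -0.06. ALDH1A1, which makes retinoic acid, gave 0.19 ± 0.41, and TPI1, whose triose phosphate substrates give rise to methylglyoxal, gave 0.12 ± 0.17.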

How the data were processed

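Total RNA was extracted with a Qiagen RNeasy kit and labelled with Cy3 in an Agilent one-colour reaction, per the labels' protocols. The deposited values are spot intensities on a linear scale, from which Feature Extraction had subtracted a fitted background and divided out a multiplicative trend and not scaled across arrays, per the file headers. The file headers give its version as 11.5.1.1, and the submitters' processing notes give 10.5.1.1. The authors' deposited series table holds log2 values. Set against log2 intensities scaled as below and centred on each probe's median, no column's Pearson's r was below 0.9995, so scale, centring and direction are known. Its column medians were 0.13, -0.0049, -0.011 and 0.013 (5 mM cows 1 to 4) and -0.016, -0.023, 0.00088 and -0.0062 (0 mM cows 1 to 4). It served only as an alternative.

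Marked and control spots were left out, repeat spots of a probe were averaged on the log2 scale, and log2 of the 75th percentile over the array's noncontrol spots was subtracted. Probes well above background on at least 4 of 8 arrays were fitted with limma 3.58.1 (lmFit and eBayes) run in R 4.3.3; p-values were adjusted by Benjamini-Hochberg over all 31108, and the code was checked on simulated data. Single genes were also tested on their group means by exact permutation, two-sided. The normexp alternative started from the mean spot signals and their background signals, with an offset of 50, and without the trend division. Gene names came from the files and a RefSeq gene table of ARS-UCD2.0; 34654 of 43653 probes had a symbol. No genome of the array's build was used, so untranslated regions and exons are not given. Probe sequences are from the deposited array files.

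The members, the wider list and the marker lists were chosen with earlier results of these data known. The main probe of a gene is its brightest by the mean of the 8 arrays, and for PARK7 this was taken, after seeing the values, among probes with a value on every array; the probe at 832, with missing values, is given beside it. All 10 genes were named, the 3 of the wider list with the lowest unadjusted p together with ALDH1A1, AKR1B1 and TPI1, and the 5 genes most like each of the 2 members with the largest SD. The look at slides and at rows of the array, the window of 0.5 log2 units for comparing SDs and the gap of over 0.5 of the range that marks separate clusters were chosen after seeing the data.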

Additional observations from a re-analysis of the deposited data

Results flagged for a closer look

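Within groups of 4 cows, 40 groups of values (20 probes, both doses) were screened for a cow far from the other 3 by Dixon's criterion, and 2 stood out, where chance gives about 1 in 20. In the 0 mM group the HAGH probe at 1061 was lowest in replicate 1 at 2.61, against 2.78 to 2.81 in the other 0 mM cows. In the 5 mM group the GLOD4 probe was lowest in replicate 3 at -0.41, against -0.08 to -0.02 in the other 5 mM cows. At both probes the values of the 5 mM and 0 mM cows overlapped.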

How the results depend on the processing

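No probe of the 10 genes reached an unadjusted p under 0.05 in any of the 20 alternative settings, in which the lowest was 0.0621 and the lowest adjusted p 0.667. Over all probes 0 passed the adjusted threshold in each of them. The 595 probes at an unadjusted p under 0.05 (298 higher, 297 lower) became 1067 without a filter, 1026 with slide as a block and 1221 with the replicate block, and 376 to 1528 when 1 cow was left out. The count was 376 when 5 mM replicate 3, 1065 when 5 mM replicate 4 and 1528 when 5 mM replicate 2 was the one left out. The split was 418 higher and 227 lower after quantile normalization, 427 and 201 after a median shift, and 339 and 187 with normexp. Leaving out the 20 outermost rows at either edge, chosen after seeing the data, left 29275 probes tested and 589 of them at that p. The labels do not say that a replicate number marks a shared animal or day. Deviations from group means of same-numbered cows correlated with r of 0.40, 0.36, -0.30 and 0.31 for replicates 1 to 4, and only replicates 1, 2 and 4 share a slide across groups, so the numbers were not taken as pairs. The replicate block changed no call of the 10 genes.

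The sign was kept for PARK7, ALDH7A1 and ADH5 in all of these settings, over -0.37 to -0.12, 0.17 to 0.31 and 0.15 to 0.35. GLO1 changed sign without the outermost rows (0.19). AKR1A1 did so after a median shift (0.0015), with normexp (0.0085), with slide as a block (0.030) and as the mean of its probes (0.037). ALDH2 did so after a median shift (0.035) and with slide as a block (0.00077), ESD and GLOD4 with array weights (-0.030 and -0.035), and AKR1B10 with normexp (0.0064). With 1 cow left out the differences ran from -1.11 to 0.20 for GLO1, -0.14 to 0.045 for AKR1A1, -0.037 to 0.31 for ESD, -0.056 to 0.0080 for ALDH2, -0.012 to 0.095 for HAGH and -0.078 to 0.16 for GLOD4. The cause of these sign changes was not tested. In the main setting, each of these genes except AKR1B10 had a difference within 1 SE of 0. The SD of the GLO1 probe at 1855 was 1.10 to 1.92 over the settings, highest with normexp, which omits the trend division. The deposited table gave 1.35. Precision is limited by the 8 arrays.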
